A study of Rattus norvegicus with 35 samples.

Results

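Neuropeptide Y was represented by 1 probe, A_42_P771373, of the 41012 probes of the array (1 of 35537 gene names), chosen as every probe whose gene name in the scanner output is Npy. It was described because its values were higher in the glands of rats exposed to indole-3-carbinol, so every difference between a group with and a group without that compound is a description of the arrays that led to the choice and carries no test. Gene expression was measured on 35 one-colour Agilent arrays of rat mammary gland, 5 in each of 7 groups. All glands were abdominal left mammary glands of female Sprague-Dawley offspring at postnatal day 21, and all exposure went through the pregnant dam from gestational day 10 to 21. The control dams, called negative control in the labels, received no stated agent. The BPA25 and BPA250 dams received bisphenol A, an oestrogenic plastics monomer, by gavage at 25 or 250 µg per kg body weight per day. The groups BPA25+genistein and BPA250+genistein had in addition a chow with 250 mg per kg of the soy isoflavone genistein. The groups BPA25+I3C and BPA250+I3C, called BPA+indole in the labels, had a chow with 2000 mg per kg of indole-3-carbinol (I3C), a compound of cabbage-family vegetables whose acid products are ligands of the aryl hydrocarbon receptor. No group received either diet without bisphenol A. The labels do not tie arrays to litters, so arrays of a group may share a dam, and the p-values below measure the spread between these arrays.

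Neuropeptide Y is an amidated peptide that sympathetic nerve endings release together with noradrenaline. It acts through the Y family of G protein-coupled receptors, and in fat its Y1 receptor, on adipocytes, restrains lipolysis. Outside neurons, megakaryocytes of rodents make the peptide and platelets carry it. The mammary gland at weaning is a small epithelial tree in a large fat pad, and the arrays read it as bulk tissue, where a change in the number of cells of a type cannot be told apart from a change in RNA per cell.

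The sequence read by the probe and the sequence upstream of the gene are shown because the first is what every value below measures and the second holds the short motifs that a reader may look for beside an aryl hydrocarbon receptor ligand. The probe is 60 bases long and lies at chr4:78321255-78321314 of rat build rn3 in the array's annotation. Its last 30 bases are printed in the 5′ to 3′ direction, with the AATAAA hexamer of a polyadenylation signal in capitals, so the probe reads the 3′ end of the messenger RNA. In RefSeq's GRCr8 assembly the gene spans chr4:80212111-80219310 on the plus strand, and the 250 bases before its start, chr4:80211861-80212110, are printed with the GCGTG core of the xenobiotic response element, which the activated aryl hydrocarbon receptor binds, in capitals.
Npy probe, last 30 bases: tatatgtgtgtttaAATAAAgtatcatgca
Npy upstream sequence: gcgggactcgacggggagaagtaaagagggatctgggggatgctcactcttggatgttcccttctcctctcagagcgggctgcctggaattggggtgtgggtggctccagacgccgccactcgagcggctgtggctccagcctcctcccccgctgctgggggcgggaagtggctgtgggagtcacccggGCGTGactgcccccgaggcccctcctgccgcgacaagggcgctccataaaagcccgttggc
The core occurs 1 time on either strand, 61 bases before the start, and 25.9% of 33469 RefSeq windows of the same length hold at least 1. The GATA core AGATAA (in 10.3% of windows) and the cAMP response element TGACGTCA (in 1.59%) have no match on either strand of these 250 bases. These are matches of letters, and no binding was measured.

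Npy was read above background on nearly every array. The probe is spotted 10 times, and 330 of its 350 spots were flagged by the scanner software as well above background and 0 as saturated. All 10 spots passed on 28 arrays and most of them on 33. The exceptions were BPA250+genistein replicate 1, with 3 of 10 spots, and replicate 4, with 5 of 10. The SD over an array's 10 spots had a median of 0.19 on the log2 scale and ran from 0.059 to 1.13. The array with the widest spread was BPA25+genistein replicate 4, whose spots ran from -1.50 to 1.78 with 7 of 10 well above background, so that its value is the least certain of the 35. All levels below are log2 intensity minus the 75th percentile of the same array, and outlier-flagged spots (29 of the 350) were left out of the means.

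In the BPA250+I3C glands the values were 1.84, 0.05, 0.21, -0.02 and 3.02 for replicates 1 to 5, a mean of 1.02 ± 1.35 (SD, n = 5). Replicates 5 and 1 were the highest of all 35 arrays, and the remaining 3 lay close together near 0. In the BPA250 glands, without the diet, the values were -0.33, -1.10, -1.69, -1.13 and -0.89, a mean of -1.03 ± 0.49 (SD, n = 5). Every BPA250+I3C array was therefore above every BPA250 array. The difference was 2.05 ± 0.43 (SE) on the log2 scale, or 4.13-fold. This SE, like that of every Npy difference between 2 groups below, rests on 1 spread shared by all 7 groups. The group SDs ran from 0.24 in control to 1.35 in BPA250+I3C, so the SE understates the spread of the BPA250+I3C arrays. Of the 16163 genes kept for the fit, 0.841% had all BPA250+I3C arrays above all BPA250 arrays. Npy was chosen on this contrast, so nothing is read from its place in that share. The median difference over all genes was itself 0.24 in this contrast (0.12 to 0.58 over 5 ways of scaling the arrays), and relative to it Npy stood 1.81 higher (1.20 to 1.96). Without replicates 1 and 5, left out after their values were seen, the difference was 1.11 ± 0.37 (SE).

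**Figure D1:**
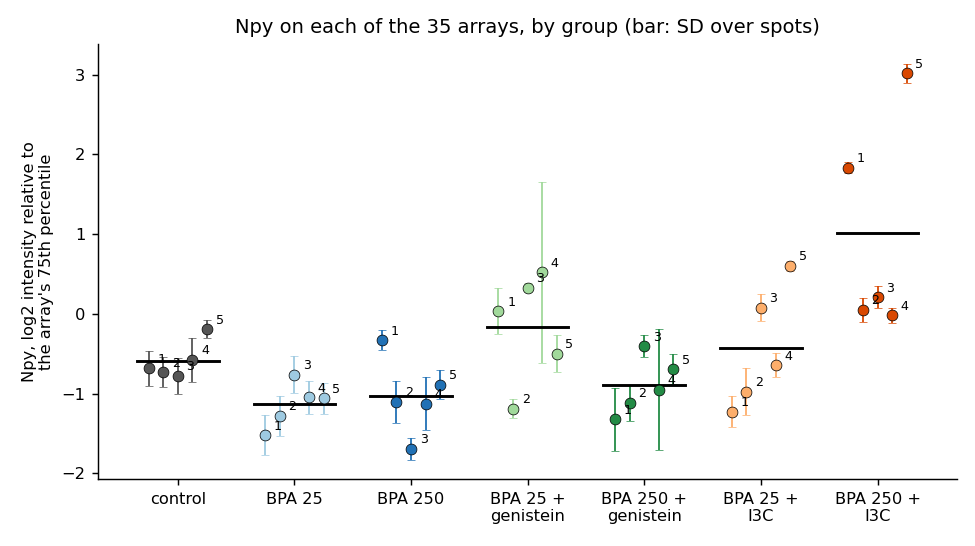
Npy level on each array (log2 intensity relative to the array's 75th percentile) by group, with the replicate number beside each point, the SD over all 10 spots as the bar and the group mean as the black line. BPA250+I3C replicates 5 and 1, at 3.02 and 1.84, stand above the other 33 arrays, and the long bar is BPA25+genistein replicate 4 with a spot SD of 1.13.

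At the lower bisphenol A dose the I3C glands overlapped the glands without the diet. The BPA25+I3C values were -1.23, -0.97, 0.08, -0.64 and 0.60, a mean of -0.43 ± 0.76 (SD, n = 5). The BPA25 values were -1.52, -1.28, -0.76, -1.05 and -1.06, a mean of -1.13 ± 0.28 (SD, n = 5). The difference was 0.70 ± 0.43 (SE), and 3 of the 5 I3C arrays were above all BPA25 arrays. It was 0.41 with normexp background correction and 1.23 with slide as a fixed block. Relative to the median over all genes of 0.13 (0.07 to 0.25 over the 5 scalings), Npy stood 0.57 higher (0.28 to 0.64).

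The control values were -0.68, -0.73, -0.78, -0.57 and -0.19, a mean of -0.59 ± 0.24 (SD, n = 5), the narrowest group. All 5 BPA250+I3C arrays were above all 5 controls, by 1.61 ± 0.43 (SE) in the means, as were 0.662% of genes. The BPA25+I3C mean was 0.16 above the controls, with overlapping values.

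With genistein the BPA25 glands gave 0.04, -1.19, 0.33, 0.52 and -0.50, a mean of -0.16 ± 0.69 (SD, n = 5). The BPA250+genistein glands gave -1.32, -1.11, -0.41, -0.95 and -0.69, a mean of -0.90 ± 0.36 (SD, n = 5). The first group spread over the range of the BPA25+I3C arrays, while the second lay below all 5 BPA250+I3C arrays. The means of BPA250+I3C and BPA250+genistein differed by 1.92 ± 0.43 (SE), and 2.99% of genes had the 2 groups separated in this direction. At the lower dose the I3C mean was 0.27 below the genistein mean (log2 difference -0.27 ± 0.43, SE), with overlapping values.

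From high to low the group means ran BPA250+I3C, BPA25+genistein, BPA25+I3C, control, BPA250+genistein, BPA250 and BPA25. No neighbouring pair in that order differed by more than the larger of its 2 SDs. The widest gap, between the first and second group, was 1.18 against an SD of 1.35, and the next widest, between control and BPA250+genistein, was 0.31 against 0.36.

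Contrasts without I3C arrays were tested, although those with BPA25 or BPA250 share these arrays with the contrasts that led to the choice of the gene. Low values on these arrays favoured that choice, so such contrasts are not independent of it. Their SE and limma p use the spread shared by all 7 groups, the wide BPA250+I3C group (SD 1.35) included. The exact permutation test uses only the 2 groups compared. Genistein added to BPA25 gave a difference of 0.97 ± 0.43 (SE), higher in 22 of 25 pairs of arrays. The limma adjusted p over all genes was 0.99, and the exact two-sided permutation test of the same arrays gave p = 0.0317, or 0.127 adjusted over the 8 contrasts tested. Without BPA25+genistein replicate 4, the array whose spots disagreed, the difference was 0.80, and with normexp background correction it was 0.43. Genistein added to BPA250 gave 0.13 ± 0.43 (SE; limma adjusted p = 1.00). The difference between the 2 genistein effects was -0.84 ± 0.61 (SE; limma adjusted p = 1.00). Of all genes tested, 0.00619% passed at an adjusted p of 0.05 with genistein at BPA25 and 0% at BPA250.

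Bisphenol A alone gave lower means than the control at both doses. BPA25 was 0.54 lower (log2 difference -0.54 ± 0.43, SE; limma adjusted p = 1.00), lower in all but 1 of 25 pairs, and -0.30 with normexp background correction. The exact two-sided permutation p, which uses only these 2 groups (SD 0.28 in BPA25 and 0.24 in control), was 0.0159, or 0.127 adjusted over the 8 contrasts. Low BPA25 values had favoured the choice of Npy, so this p is not independent of that choice. BPA250 was 0.44 lower (-0.44 ± 0.43, SE; limma adjusted p = 1.00; exact permutation p = 0.119, adjusted 0.229). The doses differed by 0.11 ± 0.43 (SE), the BPA250 mean being higher, with an exact permutation p of 0.722. The sign of that last difference turned under 3 of the alternative scalings. In each of these comparisons 0% of genes passed the adjusted threshold. BPA25+genistein was 0.43 above and BPA250+genistein 0.31 below the control, and the second was 0.74 below the first, with limma adjusted p of at least 0.999 and 0% of genes passing in each. For Npy, then, no tested contrast passed after adjustment by limma or by the exact test.

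The arrays came on 10 slides scanned on 5 days, and no slide held all groups. BPA250+I3C arrays were on slides 1, 2, 4, 8 and 9, and on 4 of these the BPA250+I3C array had the highest Npy value of the slide. On slide 8 it read -0.02 and the BPA25+I3C array 0.08. Only slide 1 held both a BPA250+I3C and a BPA250 array, 1.84 and -0.33, a difference of 2.17. Only slide 9 held both a BPA25+I3C and a BPA25 array, which differed by 0.42. The BPA250+I3C array was above the control on all 3 slides that held both, by 0.55 to 3.21, and above BPA250+genistein on all 3 such slides, by 0.93 to 1.37. On 2 of these, slides 2 and 8, the genistein array was one of those without most spots above background, and the difference there is uncertain; on slide 4 it was 1.32. BPA25 was below control on all 4 shared slides (-0.87 to -0.27), BPA250 on 2 of 3. BPA25+genistein arrays were above BPA25 on both shared slides, by 0.09 on slide 3 and 1.57 on slide 7. The slide 7 array was BPA25+genistein replicate 4, whose spots disagreed, so the difference there is uncertain. Slide 3 stood apart, with 93.4% to 96.4% of probes above background against at most 72.2% elsewhere, and its 4 arrays, none of an I3C group, read -1.28 to -0.73 for Npy.

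**Figure D2:**
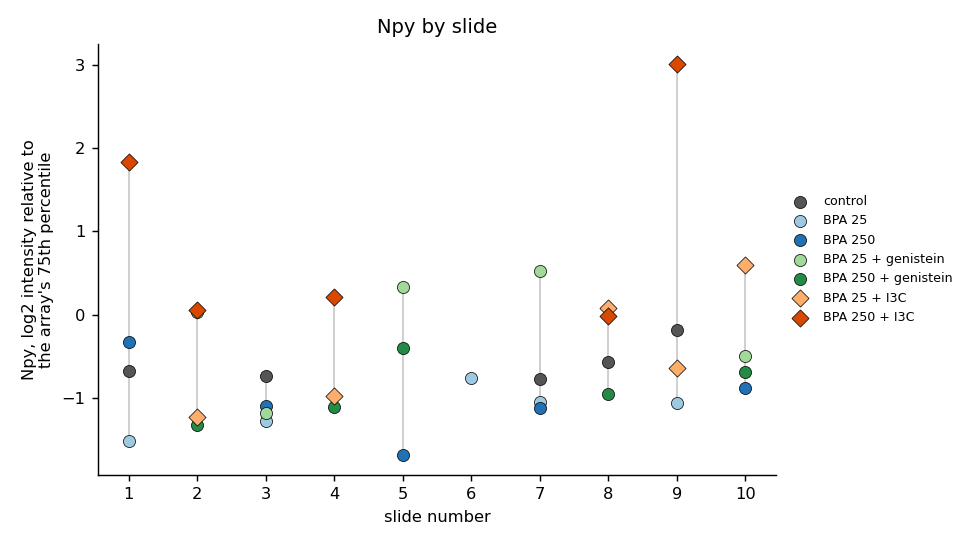
Npy level (log2 intensity relative to the array's 75th percentile) against slide number, 1 point per array, with I3C groups as diamonds and a grey line over each slide's range. A BPA250+I3C array is at the top on slides 1, 2, 4 and 9, and on slide 8 it lies 0.10 below the BPA25+I3C array.

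Of the other genes of the Npy system few were read above background, and none passed the test in any comparison. Among its relatives, the gut hormones peptide YY and pancreatic polypeptide, Pyy was well above background on 7 of 35 arrays and Ppy on 10. Outside slide 3 these counts were 3 and 6, and neither gene was kept. Of 5 receptor genes, Npy1r, the adipocyte receptor named above, was the only one kept, on 23 arrays. Npy1r differed by -0.62 ± 0.37 (SE) with I3C at BPA250 (limma adjusted p = 0.766) and by -0.05 ± 0.37 at BPA25 (adjusted p = 0.999). Its correlation with Npy over the 35 arrays was 0.02. The receptors Npy2r, Npy4r and Npy5r were above background on 7 to 9 arrays, 4 of them on slide 3, and no probe is named Npy6r.

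Of 9 genes that process or break down the peptide, 7 were kept and 0 passed the test in any of the 6 comparisons of a diet with its dose or of a dose with control. The prohormone convertases Pcsk1 and Pcsk2, which cut the precursor, were above background on 9 arrays each, 5 of them outside slide 3, and were not kept. With I3C at BPA250 the median of the 7 was 0.33, beside 0.24 over all genes. The neutral endopeptidase Mme gave 0.84 ± 0.47 (SE), the convertase chaperone Scg5 -1.04 ± 0.58, the aminopeptidase Xpnpep1 0.63 ± 0.43 and the peptidase Fap 0.33 ± 0.42, with limma adjusted p of 0.766 to 0.785. The amidating enzyme Pam, needed for the active peptide, differed by 0.39 ± 0.84 (SE). Dipeptidyl peptidase Dpp4, which trims the peptide's first residues, differed by 0.33 ± 0.57 (SE).

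Markers of the sympathetic fibres that store the peptide were mostly dim. Of 22 sympathetic and neuronal genes, all on the array, 5 were kept. Tyrosine hydroxylase Th, the first enzyme of noradrenaline synthesis, was above background on 10 arrays, dopamine beta-hydroxylase Dbh on 7 and the noradrenaline transporter Slc6a2 on 5. Outside slide 3 these counts were 6 for Th, 3 for Dbh and 1 for Slc6a2. Of the 5 kept genes 0 passed in any comparison. With I3C at BPA250 2 of the 5 were higher, beside 69.8% of all genes, and their median difference was -0.52, beside 0.24 over all genes. The aromatic amino acid decarboxylase Ddc gave -0.61 ± 0.33 (SE; limma adjusted p = 0.766). The neurotrophin receptor Ngfr differed by -0.52 ± 0.52 (SE) and the neuronal filament gene Prph by 0.12 ± 0.25. The mean of the 5 genes was -0.65 in the BPA250+I3C group (-0.54, -0.89, -0.57, -0.87 and -0.41 in replicates 1 to 5) and -0.37 in BPA250 (-0.59 to 0.15, the highest on slide 3). Within the BPA250+I3C group it was highest on replicate 5 and next highest on replicate 1, as Npy was. Replicate 1 at -0.54 lay close to replicate 3 at -0.57. Over the 35 arrays the mean of the 5 genes had r = -0.15 with Npy, and over the 25 without I3C r = -0.36. The part of nerve fibres in the Npy result was not tested.

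Among 15 other neuropeptide genes, 5 were kept and 0 passed. With I3C at BPA250, pituitary adenylate cyclase-activating peptide (Adcyap1) differed by -0.65 ± 0.36 (SE), proopiomelanocortin (Pomc) by 0.42 ± 0.29, cholecystokinin (Cck) by 0.36 ± 0.50 and calcitonin gene-related peptide (Calca) by 0.16 ± 0.40. Agrp, which neurons of the hypothalamus make together with Npy, was above background on 11 arrays, 7 of them outside slide 3. Of 14 adrenergic receptor and lipolysis genes, 11 were kept and 0 passed, with a median of -0.18 at BPA250. The monoacylglycerol lipase Mgll gave 0.96 ± 0.53 (SE), the receptor Adra1d 0.77 ± 0.43, the receptor Adra2b -1.78 ± 0.98 and the lipid droplet coat gene Plin1 0.59 ± 0.53, all with a limma adjusted p of 0.766. Adrb3, the lipolytic receptor of adipocytes, differed by -0.45 ± 0.47 (SE). Of 7 target genes of the aryl hydrocarbon receptor, 3 were kept and 0 passed. Its most inducible target Cyp1a1 was above background on 10 arrays, 6 of them outside slide 3, and Cyp1b1 differed by -0.16 ± 0.44 (SE) and Tiparp by 0.34 ± 0.34 with I3C at BPA250.

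Over all 21 lists (167 genes, of which 102 besides Npy were kept), the 6 comparisons gave 1 call at an adjusted p of 0.05. It was the slow-twitch muscle troponin Tnni1, lower with I3C at BPA25 (-4.62 ± 0.83, SE; limma adjusted p = 0.0336), where 0.0124% of all genes passed. With I3C at BPA250, 0% of all genes passed in limma. An unadjusted limma p under 0.05 was reached by 699 of the 16163 genes, fewer than the 1 in 20 that this threshold flags by chance.

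**Figure D3:**
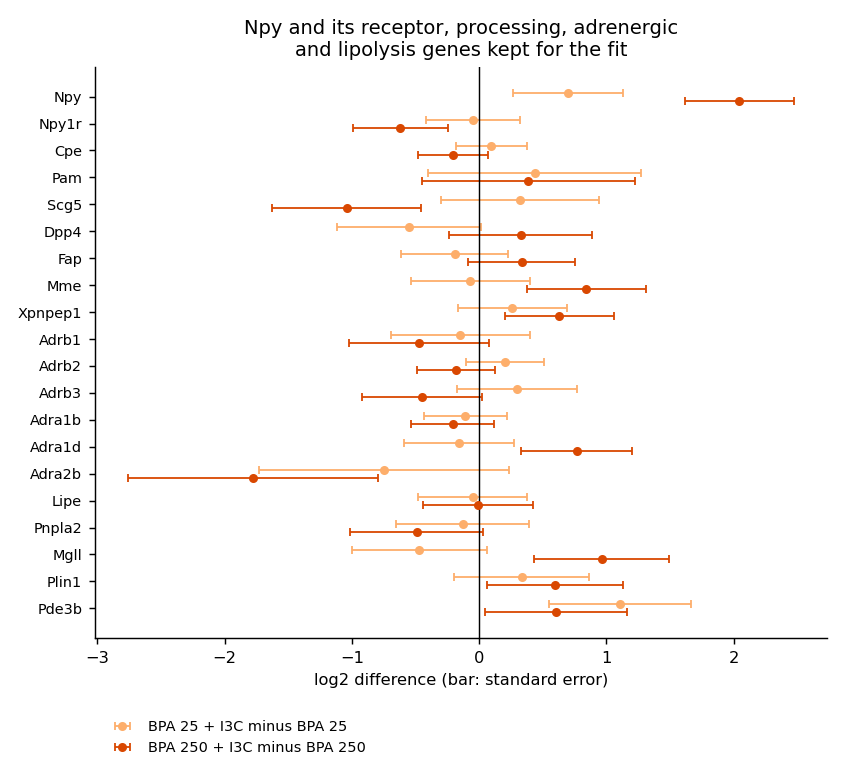
Log2 difference with I3C (standard error as the bar) at each bisphenol A dose for Npy and for the kept genes of its receptor, processing, and adrenergic and lipolysis lists. Npy at BPA250, 2.05, lies to the right of every other point, Adra2b at BPA250 has the lowest point at -1.78, and Npy was chosen for this contrast while the other genes were not.

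The genes whose values followed those of Npy most closely over the 35 arrays included red-cell and interferon-inducible genes. The 8 highest Pearson correlations, among 16162 genes with a median of 0.19 and a 99th percentile of 0.51, ran from 0.90 to 0.82, and the ninth was 0.81. In order they belonged to Slc4a1 (0.90), the band 3 anion exchanger of red cells, the interferon-inducible Ifit1 (0.88), LOC688972 (0.87), which the array describes as similar to glycophorin, and TC541702 (0.87), a transcript with no RefSeq name here. Then came the interferon-inducible Rsad2 (0.87), Alas2 (0.83), the erythroid enzyme that starts haem synthesis, Rhd (0.83), a Rh blood group gene, and BM387057 (0.82), another transcript with no RefSeq name. All 8 reached their highest value on BPA250+I3C replicate 5, and 6 of them their second highest on replicate 1, the same arrays as Npy. In the other 2, Rhd and BM387057, BPA25+genistein replicate 4 came second and BPA250+I3C replicate 1 next. Leaving out the 2 most extreme arrays of each gene lowered the 8 correlations to between 0.67 and 0.76. On the 25 arrays without I3C they were 0.61 to 0.73.

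Slc4a1 read 2.55, -0.14, 0.69, 0.51 and 3.46 in BPA250+I3C replicates 1 to 5. In the BPA250 glands it read -0.61, -0.41, -0.68, -1.01 and -0.18. The groups did not overlap, and their means differed by 1.99 ± 0.47 (SE), close to the 2.05 of Npy. Without BPA250+I3C replicates 1 and 5 the Slc4a1 difference was 0.93 ± 0.41 (SE), beside 1.11 for Npy. Alas2 differed by 2.37 ± 0.62 (SE), Rsad2 by 1.97 ± 0.49 and Ifit1 by 1.72 ± 0.50 with I3C at BPA250, and for all 8 the difference at BPA25 was smaller, from 0.13 for Slc4a1 to 0.77 for BM387057. These genes were picked for moving with Npy, so their differences are descriptions.

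**Figure D4:**
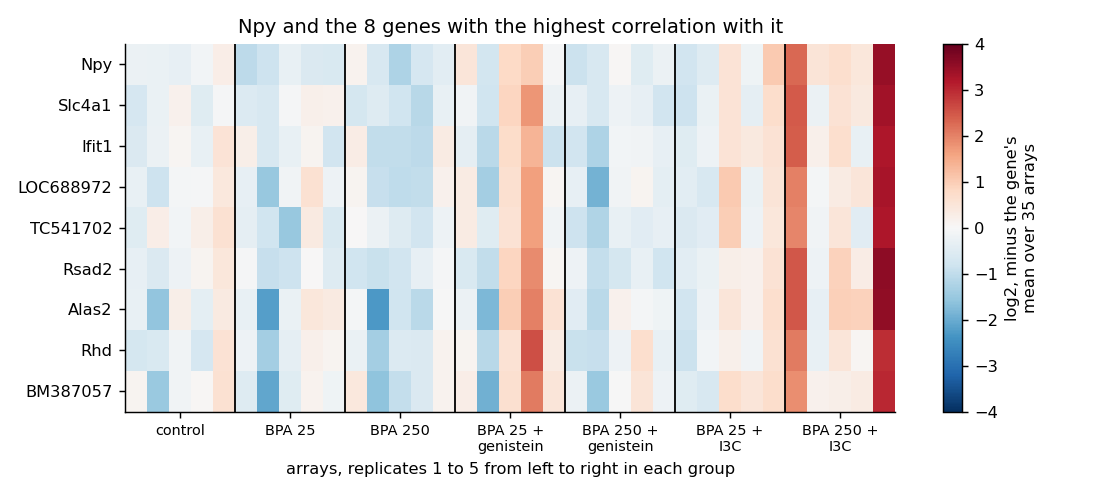
Values of Npy and the 8 genes with the highest Pearson correlation with it on 35 arrays, as log2 minus the gene's mean over all arrays, with arrays in columns by group and replicate. The darkest red columns are BPA250+I3C replicates 1 and 5, and BPA25+genistein replicate 4 is the reddest column outside that group.

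The likeness did not extend to every interferon-inducible gene. Among genes looked up after these values were seen, the interferon-inducible Isg15 (Pearson's r = 0.19 over the 35 arrays), Irf7 (0.30), Ifi27 (0.19), Usp18 (-0.20) and Oas1a (-0.26) did not follow Npy. Beta globin Hbb, a member of the erythroid list, had 0.67. Carbonic anhydrase Car2, arachidonate 15-lipoxygenase Alox15 and the membrane skeleton gene Add2, all made in red cells or their precursors, had 0.79 to 0.80. Car2, Alox15 and Add2 were on none of the lists and were named with their values known, so their values are descriptions. With I3C at BPA250, Hbb differed by 1.45 ± 0.62 (SE), Car2 by 1.69 ± 0.52, Alox15 by 2.18 ± 0.67 and Add2 by 2.11 ± 0.58, each with a limma adjusted p of 0.766.

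The mean of each of 18 lists was also set against Npy on the 25 arrays without I3C, of which the BPA25 and BPA250 arrays had entered the choice of Npy. The erythroid list (Hbb, Alas2 and Slc4a1, the 3 on the array of 5 listed, each well above background on all 35 arrays) gave Pearson's r = 0.69 and Spearman's rho = 0.67. Alas2 and Slc4a1 are also among the 8 genes named for following Npy over arrays that include these 25, so these values are a description and no p is given. Hbb, which is not among the 8, had r = 0.61 on the 25 arrays. Leaving out the 2 arrays with the most extreme list mean gave r = 0.59, leaving out slide 3 gave 0.75 (n = 21), removing group means 0.67 and removing slide means 0.79 (n = 23). The megakaryocyte and platelet list (Pf4, Gp9, Gp1bb and Treml1, 4 kept of 8 listed) gave r = 0.61 (two-sided permutation p = 0.00122, adjusted over the 18 lists 0.011) and rho = 0.55 (p = 0.00487, adjusted 0.0438), but r = 0.39 without the 2 most extreme arrays. Among the 25 arrays, BPA25+genistein replicate 4, whose Npy spots disagreed, had the highest platelet list mean (0.99) and erythroid list mean (4.78). Its Npy value (0.52) was also the highest of the 25, and for both lists it was among the 2 arrays left out. Removing group means left the platelet correlation at 0.60 and removing slide means at 0.65. Of the remaining lists none passed in either measure over the 25 arrays. The permutations exchanged arrays across groups and slides, and the lists were chosen with earlier results of these data known. Their p-values are therefore not independent of those results. The Schwann cell list gave r = -0.31 (adjusted 0.342), but -0.77 after removing slide means (n = 23) and -0.53 without slide 3 (n = 21). The sympathetic list gave r = -0.36 (permutation p = 0.0779, adjusted 0.28), the adipocyte list 0.21 (adjusted 0.426) and the macrophage list 0.26 (adjusted 0.365).

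**Figure D5:**
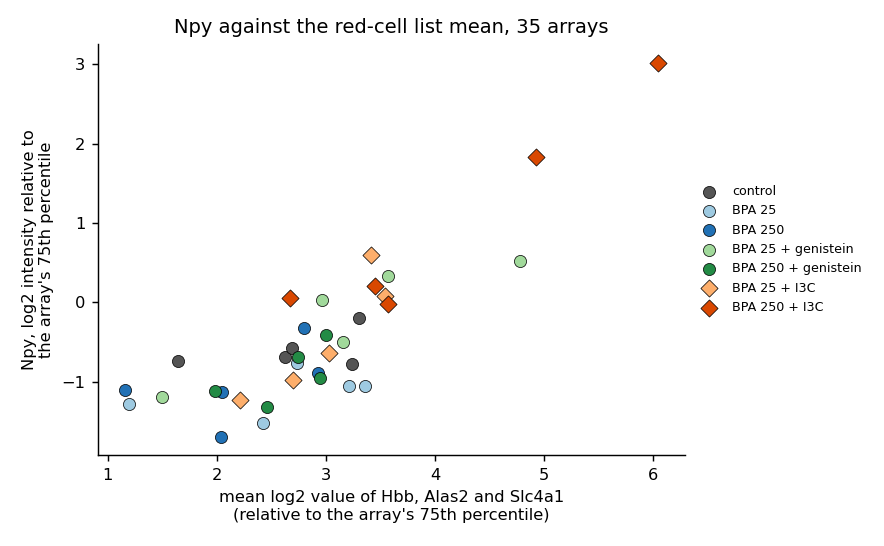
Npy level against the mean of Hbb, Alas2 and Slc4a1 on each of 35 arrays, both on the log2 scale after subtracting each array's 75th percentile, coloured by group with I3C groups as diamonds. The points rise together (r = 0.85 over 35 arrays, 0.69 over the 25 without I3C), with BPA250+I3C replicates 1 and 5 at the upper right.

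Beside the Npy values, the erythroid list mean was 4.13 ± 1.34 (SD, n = 5) in BPA250+I3C, with 4.92, 2.67, 3.45, 3.57 and 6.05 in replicates 1 to 5. It was 2.19 ± 0.71 in BPA250 (1.15 to 2.93), 2.70 ± 0.66 in control (1.64 to 3.30), 3.19 ± 1.18 in BPA25+genistein (1.50 to 4.78) and 2.98 ± 0.54 in BPA25+I3C (2.22 to 3.54). All 3 genes were higher with I3C at both doses, as were 65.7% of all genes at BPA25 and 69.8% at BPA250. Their differences were 0.13 to 0.59 at BPA25, beside a median of 0.13 over all genes (limma adjusted p = 0.999). At BPA250 they were 1.45 to 2.37, beside a median of 0.24 (limma adjusted p = 0.766). The platelet list mean was 0.41 in BPA250+I3C (-0.12 to 0.97) and 0.23 in BPA250 (-0.09 to 0.36), with Gp5 above background on 4 arrays and Ppbp on 10. With I3C at BPA250, 2 of its 4 kept genes were higher, and their median difference was 0.15 beside 0.24 over all genes. The part of red cells, platelets or blood in the Npy result was not tested.

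Markers of both fat and epithelium were read. All 8 adipocyte genes, 6 of 7 luminal epithelial genes and 4 of 6 basal epithelial genes were kept, the alveolar regulator Elf5 and the keratin Krt17 were not, and no probe is named Acta2. With I3C at BPA250 the medians were 0.44 for adipocyte genes, -0.44 for luminal and -0.82 for basal genes, and -1.38 for the 7 kept skeletal muscle genes, with 0 passing in each. Of 5 brown adipocyte genes 3 were kept and 0 passed. In the same contrast 2 of the 3 were higher, with a median of 0.11 beside 0.24 over all genes. Among them the brown-fat uncoupling protein Ucp1 differed by 2.89 ± 0.84 (SE; limma adjusted p = 0.766), a larger difference than that of Npy. Its correlation with Npy over the 35 arrays was 0.48. The part of these tissue differences in the Npy result was not tested.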

How the data were processed

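Total RNA (150 ng per array) was hybridised to one-colour 4x44K rat arrays and read with Agilent Feature Extraction 9.5.3.1, per the submitters' processing notes. The deposited scanner intensity (gProcessedSignal, background-subtracted per the file headers) was set to log2 and the array's 75th percentile subtracted. The spot flags for background, saturation and outliers are the other values taken from the authors' files. The authors' deposited value table, on a log2 scale whose normalization is not given in the sources used here, was an alternative. Control spots (1639) and outlier-flagged spots were left out and spots of a probe averaged. A probe was kept if well above background on 4 of 5 arrays of at least 1 group and missing on at most 5 arrays, with the brightest probe per gene, which left 16163 genes. Group means of all 35 arrays were fitted with limma 3.58.1 (R 4.3.3), with Benjamini-Hochberg adjustment, after a test on simulated data. Single-gene permutation tests were exact, and those of list means used 100000 permutations. The precision is limited by 5 arrays per group. The 75th percentile signal ran from 30.4 to 876.

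Of the probes, 20035 had a RefSeq name; the others keep the array's name. Named were Npy, the members of the lists that passed or up to 4 per list of the smallest p, the 8 genes with the highest Pearson correlation with Npy, and a few genes described as defining or background, whose values had been seen. Of the listed genes, 1 is not reported here by name. The members and lists were chosen with earlier results of these data known. Same-numbered arrays deviated together (every correlation over 0.1) in 3 of 15 contrasts: genistein added to BPA250, BPA25 against control, and the doses under genistein. Alternatives covered background correction, scaling, filters, slide, scan day, replicate number and each array left out.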

Additional observations from a re-analysis of the deposited data

Results flagged for a closer look

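Of 63 groups of 5 arrays examined for a single far value (Npy and the 8 genes most like it, in each of 7 groups), 3 had one. Chance flags about 1 in 20 groups. In the group BPA250+genistein the glycophorin-like LOC688972 had a lowest array at 1.80 below the 75th percentile (log2 value -1.80). In BPA25, Alas2 had a lowest array at 0.69 and BM387057 at 0.50, both on replicate 2, an array of slide 3. None of the 7 Npy groups had a value that far from the others by this measure, the BPA250+I3C group included, where replicates 1 and 5 were both high.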

How the results depend on the processing

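Npy kept its direction with I3C at both doses under every alternative tried. At BPA250 the difference was 1.41 with normexp background correction and 1.11 without BPA250+I3C replicates 1 and 5 (an alternative chosen after seeing the data), the 2 that moved it most; leaving out each array in turn gave 1.55 to 2.31, and 0.44 to 0.90 at BPA25. No tested Npy contrast passed the threshold under any alternative. The BPA250 minus BPA25 difference turned to -0.015 with quantile normalization, -0.016 with the array median and -0.0027 in the authors' value table. Genistein added to BPA250 turned to -0.059 with the array median and -0.21 without slides 3, 4 and 5, and BPA250+genistein minus control to 0.15 with slide as a fixed and 0.0204 as a random block. Over the other settings, I3C at BPA25 ran from 0.41 (normexp) to 1.23 (slide as a fixed block), genistein at BPA25 from 0.43 to 1.42 (the same 2 settings), BPA25 minus control from -0.74 to -0.30, BPA250 minus control from -0.59 to -0.23, BPA25+genistein minus control from 0.13 to 0.68 and the doses under genistein from -1.01 to -0.21. Leaving out single arrays gave -0.64 to -0.44 for BPA25 minus control, -0.61 to -0.27 for BPA250 minus control, -0.0681 to 0.27 for BPA250 minus BPA25, 0.80 to 1.23 and -0.0362 to 0.30 for genistein at BPA25 and BPA250, 0.26 to 0.69 and -0.43 to -0.20 for the genistein groups against control, and -0.99 to -0.57 for the doses under genistein.

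Counts of genes past the threshold moved most. With I3C at BPA25 (2 genes) they were 0 with normexp, the authors' table, no filter, outlier spots kept or slide as a fixed block, 1 with quantile normalization or only the arrays of the groups compared, 4 with the replicate block, 5 with scan day, 9 without slide 3 and 12 without slides 3, 4 and 5. With genistein at BPA25 (1 gene) they were 0 with normexp, the authors' table, no filter, outlier spots kept, slide as a fixed block or only the compared arrays, 2 with scan day, 19 without slide 3 and 18 without slides 3, 4 and 5. From 0, genistein at BPA250 went to 1 in the authors' table, 4 and 76 with slide as a fixed or random block, I3C at BPA250 to 2 with slide as a random block, and BPA250 minus control to 1 without slides 3, 4 and 5. The listed genes (1 call) went to 0 with normexp, quantile, the authors' table, no filter, outlier spots kept, slide as a fixed block or without BPA250+I3C replicates 1 and 5, to 7 without slide 3 and to 6 without slides 3, 4 and 5. Leaving out single arrays gave 0 to 22 genes with I3C at BPA25, 0 to 7 with genistein at BPA25, 0 to 4 for the listed genes and 0 in the other 4 comparisons. The replicate block left every Npy difference as it was (2.05 with I3C at BPA250, SE 0.40) and changed no other call. The cause of these changes was not tested. Of the 8 genes most like Npy, 3 stayed among the top 8 without the I3C arrays (chosen after seeing the data). Another Npy probe could not be tried, since the array has 1.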
